A study of Mus musculus with 24 samples.

Results

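The comparison of 4 gastrocnemius libraries labelled as taken 5 days after denervation with 4 control libraries is described across all genes. These 8 libraries, chosen by the labels alone, are part of a mouse series of 24 poly(A)-selected RNA-seq libraries in 6 groups of 4, with further groups at days 1, 3, 7 and 14. The gastrocnemius is the large, mostly fast muscle of the calf. The labels give the tissue and the day only: strain, genotype, sex, age, the way the nerve was interrupted, and whether control muscle came from untouched, sham-operated or contralateral legs do not appear in the sources used here. Whether each library is its own animal is not stated either, so the p-values here cover only library-to-library spread and may reflect technical repeats. The extraction text that accompanies the libraries names primary neurons of the dorsal root ganglion, which goes against the tissue label, and the markers below were read for that reason.

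A muscle fibre that loses its nerve loses both the electrical activity that the nerve drives and the factors it releases at the neuromuscular junction. In innervated adult muscle the acetylcholine receptor is made under the few nuclei at the junction and contains an epsilon subunit. In embryonic and denervated muscle it is also made by nuclei along the fibre and contains a gamma subunit instead. Myogenic factors such as myogenin bind E-boxes in the receptor genes and are themselves held low by activity, and prolonged disuse shrinks fibres by protein breakdown and by loss of contractile and metabolic gene expression.

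The libraries were muscle by their markers. Acta1 (skeletal alpha-actin) stood at 86936, 82327, 83903 and 82004 CPM (counts-per-million units scaled by the trimmed mean of M values, TMM) in control and 32724, 32706, 33070.4 and 32044 at day 5, and Ckm (muscle creatine kinase) averaged 43385 ± 398 CPM in control and 13354 ± 305 at day 5. Of 19 sensory and motor neuron genes, 6 were abundant enough to test, and the whole list summed to 5.55 to 9.93 CPM in control and 10.8 to 14.03 CPM at day 5. Total counts were 16839788 to 17823600 in control and 16571414 to 17738814 at day 5. TMM factors were 0.693 to 0.707 in control and 1.09 to 1.1 at day 5, so that a gene with an equal share of counts in both groups is scored as lower at day 5 after scaling. All 4 day 5 libraries carried genes of lymphoid tissue that were at or near 0 in control, with values given below. Chrna1, a receptor subunit gene that denervation is known to raise, did not follow the order of the days: it averaged 37.98 CPM in control, 414 at day 1, 43.1 at day 3, 318 at day 5, 762 at day 7 and 1074 at day 14. The day of each library is therefore its label, which nothing in the files checks.

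The promoters of the genes for receptor subunits, Musk and Myog are shown because these genes are the known targets of lost nerve contact. Each sequence is the 250 bases before the RefSeq transcription start (GRCm38.p6, gene strand), which can differ from the GENCODE gene bounds given below, in lower case with each E-box in capitals. The E-box, CANNTG, reads the same on both strands, and CAGCTG is one form of it. The windows are chr2:73580339-73580588 (Chrna1, minus strand), chr1:87205561-87205810 (Chrng, plus), chr11:70619195-70619444 (Chrne, minus), chr4:58285712-58285961 (Musk, plus) and chr1:134289754-134290003 (Myog, plus).
Chrna1: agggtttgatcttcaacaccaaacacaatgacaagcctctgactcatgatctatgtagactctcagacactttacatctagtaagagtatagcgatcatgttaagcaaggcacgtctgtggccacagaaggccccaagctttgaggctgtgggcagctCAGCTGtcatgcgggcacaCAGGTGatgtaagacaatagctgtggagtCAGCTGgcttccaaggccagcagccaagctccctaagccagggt
Chrng: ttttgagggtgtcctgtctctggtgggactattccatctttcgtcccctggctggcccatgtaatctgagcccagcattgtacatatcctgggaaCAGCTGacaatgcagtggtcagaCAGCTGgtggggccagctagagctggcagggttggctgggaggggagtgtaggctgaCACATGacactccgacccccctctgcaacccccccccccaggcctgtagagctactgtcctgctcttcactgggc
Chrne: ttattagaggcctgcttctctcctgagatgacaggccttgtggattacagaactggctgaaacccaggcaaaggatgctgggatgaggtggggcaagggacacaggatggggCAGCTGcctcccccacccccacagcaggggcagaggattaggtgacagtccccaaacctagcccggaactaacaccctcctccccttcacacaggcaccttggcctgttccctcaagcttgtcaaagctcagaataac
Musk: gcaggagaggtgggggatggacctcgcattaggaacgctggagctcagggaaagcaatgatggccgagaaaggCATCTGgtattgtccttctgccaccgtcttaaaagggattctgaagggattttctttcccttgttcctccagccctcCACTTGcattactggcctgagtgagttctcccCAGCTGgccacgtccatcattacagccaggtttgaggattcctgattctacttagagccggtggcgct
Myog: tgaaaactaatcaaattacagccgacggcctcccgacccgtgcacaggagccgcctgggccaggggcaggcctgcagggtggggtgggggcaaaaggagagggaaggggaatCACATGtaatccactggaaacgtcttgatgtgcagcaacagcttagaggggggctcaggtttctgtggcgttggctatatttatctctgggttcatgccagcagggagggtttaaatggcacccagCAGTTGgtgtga

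Chrna1, Chrng and Musk each held 3 E-boxes, Chrne held 1 and Myog 2. CAGCTG occurred 2 times in Chrna1, at positions -92 and -44 relative to the start, and 2 times in Chrng, at -155 and -132. Among 32851 RefSeq promoters of the same length, 66.2% held an E-box and 12.2% held at least 3. CAGCTG was held by 13.0% of them, and at least 2 times by 1.26%. Chrne, which moved the other way, held 1 CAGCTG at -138. Musk, which rose, also held 1, at -68, while Myog and Chrnb1, which rose too, held none. The 3 E-boxes of the Chrnb1 promoter, not shown, were of other forms. Chrnd was not among the promoters searched.

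Of 14246 genes tested, 10585 (74.3%) changed at an adjusted p below 0.05 in edgeR's quasi-likelihood test. Of these, 5483 (38.5% of all genes) rose and 5102 (35.8%) fell. A change of at least 2-fold was reached by 1994 genes that rose (14.0%) and 1417 that fell (9.95%). At least 4-fold rises numbered 941 and falls 302, and at least 16-fold rises 322 and falls 29. The 2 groups of libraries did not overlap in 9406 genes (66.0%). Scaling by library totals alone called 10291 genes higher and 1680 lower and put the median gene at 0.67 instead of 0.03 on the log2 scale. Of the 5102 genes that fell, 1897 were called higher and 1680 lower with library totals alone. For gene groups the counts or medians under that scaling are therefore given where they change direction. Counts of rises and falls within a list are to be read beside 38.5% and 35.8% over all genes. Under library totals alone they are to be read beside 10291 higher and 1680 lower of 14246. On simulated counts for 12178 genes, edgeR called 43 of 50 genes changed 1.5-fold, 49 of 50 changed 2-fold and 6 of 11978 left unchanged. Most genes were left unchanged in those counts, so error from the scaling where 74.3% of genes change was not tested. In bulk muscle, fewer cells of a type and less RNA per cell cannot be told apart.

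**Figure D1:**
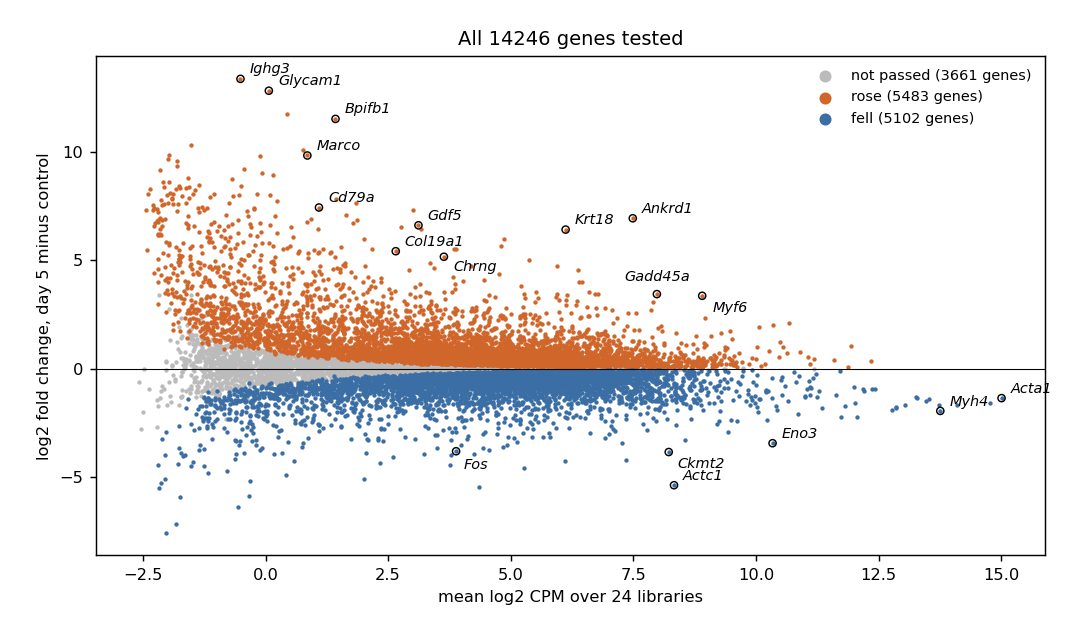
Mean log2 CPM over the 24 libraries (horizontal) against the log2 fold change of day 5 minus control (vertical) for each gene tested, coloured by call (5483 rose, 5102 fell). The rises reach further than the falls, with Ighg3, Glycam1, Cd79a, Ankrd1 and Gdf5 among the highest and Actc1 among the lowest of the abundant genes.

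The receptor genes switched subunits. Chrna1, the acetylcholine-binding alpha subunit (chromosome 2, 73563215 to 73580338, minus strand; GRCm38, GENCODE M21, as for all gene positions here), stood at 39.2, 35.7, 35.6 and 41.4 CPM in control and 321, 323, 317 and 310.1 CPM at day 5. The groups were far apart, and the rise was 8.37-fold (log2 fold change 3.07 ± 0.034, edgeR adjusted p = 2.5e-49). Chrng, the embryonic gamma subunit (chromosome 1, 87204657 to 87212694, plus strand), stood at 0.171, 0.417, 0.321 and 0.588 CPM in control and 14.4, 13.998, 14.6 and 12.03 CPM at day 5. It was barely counted in control and rose in each day 5 library (log2 fold change 5.17 ± 0.17, edgeR adjusted p = 1.5e-29). Chrne, the adult epsilon subunit (chromosome 11, 70614883 to 70619216, minus strand), stood at 14.6, 14.8, 15.99 and 14.7 CPM in control and 2.4, 2.46, 1.71 and 2.16 CPM at day 5. Every day 5 library lay below every control library, a 6.86-fold fall (log2 fold change -2.78 ± 0.14, edgeR adjusted p = 9.4e-23).

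Chrnd, the delta subunit (chromosome 1, 87190607 to 87200070, plus strand), rose from 4.83 ± 0.407 to 56.9 ± 2.17 CPM (SD, n = 4, control first, as in all such pairs), and Chrnb1, the beta subunit (chromosome 11, 69784036 to 69795943, minus strand), rose least, from 50.4 ± 4.06 to 117 ± 4.93 CPM. Levels of different genes were compared in TPM (transcripts-per-million units), which corrects for length but not for the change in composition. Chrng was at 0.34 ± 0.103 TPM in control and 15.9 ± 1.32 at day 5, and Chrne at 11.2 ± 0.485 TPM in control and 2.75 ± 0.426 at day 5. The order of the pair was thus opposite in the 2 groups on the TPM scale. Chrnb1 had the highest TPM of the subunits in control, at 27.95 ± 2.35, and Chrna1 at day 5, at 146 ± 2.18. Of the 5 subunits, 4 rose and 1 fell under either scaling, with a median log2 fold change of 3.07 (values given for lists as medians are on this scale) against 0.03 over all genes.

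**Figure D2:**
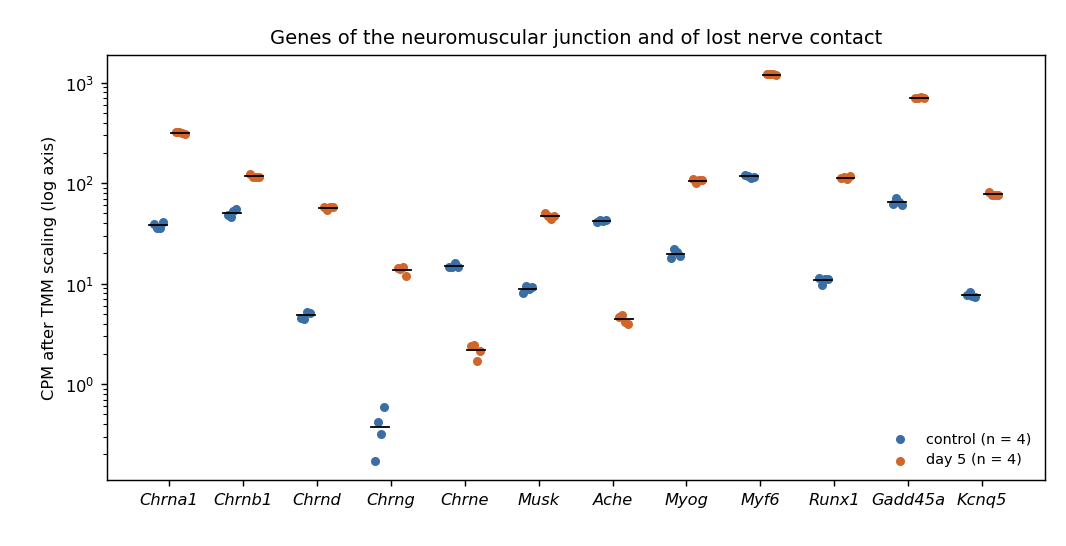
TMM-scaled CPM (log axis) of junctional and nerve-dependent genes in 4 control (blue) and 4 day 5 (orange) libraries, with bars at the group means. Chrne and Ache fell and the other genes shown rose, with no overlap between groups for any of them.

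Musk, the receptor kinase that neural agrin activates to cluster acetylcholine receptors (chromosome 4, 58285960 to 58374303, plus strand), stood at 8.05, 9.5, 8.92 and 9.24 CPM in control and 50.4, 47.1, 44.3 and 47.2 CPM at day 5. Its groups did not overlap (log2 fold change 2.40 ± 0.065, edgeR adjusted p = 2.5e-33). Lrp4, the agrin-binding partner of MuSK, was at 16.8 ± 0.674 CPM in control and 18.1 ± 1.77 at day 5 and did not pass (log2 fold change 0.11 ± 0.076, edgeR adjusted p = 0.19), although with library totals alone, or without day 5 replicate 3, it was called higher (edgeR adjusted p = 1.8e-12 and 0.035). Agrn, which encodes agrin, fell from 75.96 ± 3.46 to 37.6 ± 2.9 CPM. Ache, the esterase that ends each acetylcholine signal (chromosome 5, 137287519 to 137294466, plus strand), was at 40.6, 42.8, 42.2 and 43.3 CPM in control and 4.63, 4.86, 4.19 and 3.96 CPM at day 5. Its mRNA fell 9.56-fold (edgeR adjusted p = 1.9e-30) while Ncam1, the adhesion molecule that spreads over denervated fibres, rose from 12.5 ± 0.614 to 71.5 ± 2.95 CPM. Over the 17 scaffold genes 5 rose, 9 fell and 3 did not pass (median -0.24), and with library totals alone 12 rose and 3 fell (median 0.41).

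Transcription factors that nerve activity holds down or up moved in both directions. Myog (myogenin, chromosome 1, 134289989 to 134292548, plus strand) stood at 17.98, 22.01, 20.6 and 18.7 CPM in control and 109, 100.01, 106 and 107 CPM at day 5, with every day 5 library above control (log2 fold change 2.41 ± 0.057, edgeR adjusted p = 8.6e-36). Myf6 (Mrf4), the myogenic factor most abundant in adult fibres, stood at 119.7, 119, 112 and 116 CPM in control and 1211, 1219.8, 1205 and 1178 CPM at day 5. Its 10.3-fold rise (log2 fold change 3.37 ± 0.024, edgeR adjusted p = 6.0e-57) was larger than those of Myog and of Myod1, which went from 9.96 ± 1.56 to 33.1 ± 1.26 CPM. Hdac4, a class II deacetylase that links denervation to myogenin, rose from 49.4 ± 1.79 to 152 ± 1.33 CPM. Runx1, a factor needed to limit damage in denervated fibres, stood at 11.3, 9.59, 11.2 and 11.2 CPM in control and 113, 115, 109 and 116 CPM at day 5, again without overlap (log2 fold change 3.39 ± 0.049, edgeR adjusted p = 1.4e-44). Dach2, a repressor of Myog in innervated muscle, fell from 1.42 ± 0.377 to 0.0816 ± 0.0943 CPM (edgeR adjusted p = 4.3e-07). That fall rested on few counts: it was 16.3-fold with all libraries and 33.5-fold without day 5 replicate 1. Among the 28 factors listed 11 rose, 14 fell and 3 did not pass (median -0.27), and with library totals alone 17 rose and 6 fell (median 0.37).

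Contractile genes of the adult fast fibre fell together. Myh4, the fastest myosin heavy chain, stood at 41305, 42520.1, 41967 and 41678 CPM in control and 10595, 10766, 10887 and 11061 CPM at day 5. The fall was 3.87-fold, with no overlap (log2 fold change -1.95 ± 0.015, edgeR adjusted p = 7.0e-55). Myh1 fell from 3752 ± 48.2 to 1544 ± 35.8 CPM, whereas Myh2, the slowest of the fast isoforms, rose slightly, from 1188 ± 20.2 to 1301 ± 21.4 CPM (log2 fold change 0.13 ± 0.02, edgeR adjusted p = 1.1e-07). Of 13 fast fibre genes 1 rose and 12 fell, with the same counts under either scaling and a median of -1.82 (library totals alone -1.17). The steepest of these falls were those of Casq1, the fast calcium store protein, from 3699 ± 86.8 to 708 ± 11.005 CPM, Pvalb (parvalbumin), from 12350.0 ± 220.1 to 2618 ± 20.97 CPM, and the fast myosin-binding protein Mybpc2, from 10109 ± 103 to 2342 ± 53.7 CPM. Acta1 fell 2.57-fold.

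Most slow fibre genes fell as well. Myl3, the ventricular and slow essential light chain, stood at 612, 629, 621 and 629 CPM in control and 32.4, 33.3, 35.5 and 32.8 CPM at day 5. It was down 18.6-fold (log2 fold change -4.22 ± 0.032, edgeR adjusted p = 1.8e-55), a larger fall than that of Casq1. Its regulatory partner Myl2 fell from 319.9 ± 6.29 to 40.3 ± 1.04 CPM, Tnnc1 (slow troponin C) from 159 ± 3.38 to 58.8 ± 3.89 CPM, and Myh7, the slow heavy chain, from 694 ± 28.9 to 305 ± 11.6 CPM. Lmod2, a nucleator that sets thin filament length, rose from 131 ± 4.77 to 446 ± 11.2 CPM. Of 12 slow genes 3 rose, 8 fell and 1 did not pass (median -0.74), and with library totals alone 5 rose and 6 fell (median -0.09).

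Developmental sarcomere genes split. Myh3, the embryonic heavy chain, stood at 2.91, 3.001, 2.73 and 5.21 CPM in control and 111, 107, 113 and 116 CPM at day 5. Myh8, the perinatal form, went from 2.29 ± 0.498 to 43.2 ± 2.05 CPM. Neither gene's groups overlapped, and the rises were 32.2-fold and 18.8-fold. Ankrd1, a titin-bound ankyrin repeat protein of the I-band, stood at 2.997, 6.67, 2.49 and 2.94 CPM in control and 464, 462, 463 and 476 CPM at day 5. Its rise was among the 15 largest of named genes with a mean log2 CPM over all 24 libraries of at least 1 (log2 fold change 6.95 ± 0.066, edgeR adjusted p = 6.2e-52). Actc1, cardiac alpha-actin, which is also the actin of embryonic skeletal muscle (chromosome 2, 114047282 to 114053548, minus strand), went the other way and stood at 4326, 4074, 4163 and 3987 CPM in control and 96.1, 94.03, 104 and 103 CPM at day 5. The fall was 41.7-fold (log2 fold change -5.38 ± 0.03, edgeR adjusted p = 2.1e-60). On the TPM scale Acta1 exceeded Actc1 in both groups: Acta1 was at 69774 ± 1265 TPM in control and 45977 ± 519.5 at day 5, and Actc1 at 3357 ± 87.1 TPM in control and 136 ± 6.9 at day 5. The 2 actins are close in coding sequence, so the authors' counting could split reads between them. Myh6, the cardiac alpha heavy chain, stood at 1.37, 19.01, 0.964 and 22.02 CPM in control and 0.109, 0.534, 0.552 and 0.206 CPM at day 5. Control replicates 2 and 4 were far above replicates 1 and 3, all 4 controls lay above day 5, and the fall was 30.5-fold with all libraries and 19.97-fold without control replicate 4. Among 12 genes of this kind tested 7 rose, 4 fell and 1 did not pass (with library totals alone, 8 up and 3 down).

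Most excitation and calcium release genes fell after TMM. Kcnq5, a voltage-gated potassium channel gene (chromosome 1, 21398403 to 21961942, minus strand), stood at 7.71, 8.17, 7.47 and 7.4 CPM in control and 80.8, 75.7, 76.4 and 77.003 CPM at day 5. It rose 10.1-fold without overlap (log2 fold change 3.33 ± 0.067, edgeR adjusted p = 1.5e-38). Kcnn3 (SK3, a calcium-activated potassium channel found in denervated fibres) rose from 2.19 ± 0.443 to 8.99 ± 1.47 CPM. Scn4b, a sodium channel beta subunit, fell from 493 ± 4.36 to 103 ± 2.17 CPM, and Kcna7 from 75.4 ± 4.19 to 17.2 ± 0.949 CPM. Among 17 channel genes 4 rose, 12 fell and 1 did not pass (median -0.82), and with library totals alone 7 rose and 8 fell. Of 18 genes of the triad and sarcoplasmic reticulum 3 rose and 15 fell (median -1.0), and with library totals alone 4 rose and 10 fell. Sypl2 (mitsugumin 29) fell from 467 ± 2.88 to 118 ± 0.549 CPM, Hrc, a luminal calcium-binding protein, from 636 ± 21.9 to 169 ± 2.005 CPM, and junctophilin 2 (Jph2) from 318 ± 15.98 to 89.2 ± 5.68 CPM. Sln (sarcolipin), the small inhibitor of the calcium pump, was the exception at 15.7, 16.005, 16.5 and 17.6 CPM in control and 191, 191, 194 and 182 CPM at day 5. Its 11.5-fold rise (edgeR adjusted p = 6.8e-49) was the largest change on that list. The dystrophin complex and membrane repair genes gave 7 rises and 9 falls of 18 (median -0.13), but 14 and 3 with library totals alone (median 0.51), with a fall of sarcospan (Sspn) from 126 ± 7.91 to 41.4 ± 1.73 CPM and a rise of dystrobrevin alpha (Dtna) from 68.1 ± 4.34 to 144 ± 5.64 CPM.

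Genes of oxidative fuel metabolism fell together. None of 23 fatty acid uptake and oxidation genes, 24 tricarboxylic acid cycle genes, 73 nuclear-encoded respiratory subunits and 13 mitochondrially encoded ones rose, and all of them fell. Their medians were -1.37, -1.36, -1.27 and -1.03. With library totals alone the same lists had 23, 20, 69 and 11 falls, with 3 rises in the cycle and none in the others. Idh2, the mitochondrial NADP-linked isocitrate dehydrogenase, stood at 524, 506, 504 and 529.9 CPM in control and 56.2, 54.2, 62.2 and 54.5 CPM at day 5, a 9.09-fold fall (log2 fold change -3.19 ± 0.035, edgeR adjusted p = 3.7e-49). It fell further than citrate synthase (Cs), which went from 1152 ± 8.17 to 381 ± 8.31 CPM. Cox7a1 and Cox8b, the muscle and heart forms of cytochrome oxidase subunits, fell from 141 ± 5.79 to 20.5 ± 1.46 CPM and from 122 ± 1.49 to 32.8 ± 2.07 CPM. Cpt1b, the muscle gate for fatty acids into mitochondria, fell from 691 ± 21.6 to 140.0 ± 3.69 CPM, and the fatty acid carrier Fabp3 from 1179 ± 10.2 to 222 ± 6.08 CPM. Among mitochondrial genes mt-Co1 fell from 59482 ± 1495 to 19883 ± 589.9 CPM.

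Glycolytic genes fell too. In glycolysis and glycogen metabolism 21 of 24 genes fell and 3 rose (median -1.75, and 5 rose and 19 fell with library totals alone). Eno3, the muscle enolase (chromosome 11, 70657202 to 70662513, plus strand), stood at 7877, 7936, 7964 and 7909.9 CPM in control and 687, 735, 745 and 747 CPM at day 5. The fall was 10.9-fold (log2 fold change -3.44 ± 0.02, edgeR adjusted p = 5.7e-60). Tpi1 (triosephosphate isomerase) fell from 2777 ± 34.2 to 364 ± 8.11 CPM, Phkg1, the catalytic subunit of muscle phosphorylase kinase, from 635 ± 8.23 to 58.8 ± 2.77 CPM, and Pfkfb1, which makes the activator of phosphofructokinase, from 56.02 ± 4.01 to 3.61 ± 0.207 CPM. Enzymes of the adenine nucleotide pool moved in opposite ways. Ampd1, the muscle AMP deaminase, stood at 1660.1, 1538, 1603 and 1530.1 CPM in control and 167, 157, 161 and 161 CPM at day 5. Ampd3, the form of red cells and atrophying muscle, stood at 39.98, 36.8, 31.7 and 36.98 CPM in control and 262, 270.0, 249.5 and 249.3 CPM at day 5. Per length, Ampd1 was at 873 ± 22.4 TPM in control and 179 ± 8.08 at day 5 and Ampd3 at 11.6 ± 0.818 TPM in control and 137 ± 8.2 at day 5 on the TPM scale, so the 2 enzymes, far apart in control, came close to each other. Ckmt2, mitochondrial creatine kinase, fell 14.4-fold, from 1547 ± 29.2 to 107 ± 4.69 CPM, and adenylate kinase 1 (Ak1) from 1033 ± 11.5 to 204 ± 3.74 CPM. Of 14 genes of this kind 1 rose, 12 fell and 1 did not pass (with library totals alone, 5 up and 9 down).

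Regulators of mitochondrial content did not fall together. Ppargc1a (PGC-1 alpha), the coactivator that drives mitochondrial genes, stood at 9.76, 11.3, 12.3 and 11.01 CPM in control and 22.7, 21.5, 19.97 and 19.5 CPM at day 5. The groups did not overlap, and the gene rose (log2 fold change 0.91 ± 0.094, edgeR adjusted p = 5.3e-12). Perm1, a muscle regulator downstream of PGC-1 and ERR, fell from 97.5 ± 3.86 to 10.2 ± 1.51 CPM, Esrrb from 9.54 ± 1.56 to 2.98 ± 0.405 CPM and Esrra (ERR alpha) from 42.3 ± 3.48 to 21.3 ± 1.92 CPM. Of 18 regulators 4 rose, 9 fell and 5 did not pass (median -0.32), and with library totals alone 10 rose and 4 fell (median 0.32). In polyamine and amino acid metabolism Amd1, which supplies decarboxylated S-adenosylmethionine for spermidine, stood at 290.3, 289, 295 and 289 CPM in control and 81.8, 77.8, 78.2 and 73.9 CPM at day 5. Its fall (log2 fold change -1.90 ± 0.032, edgeR adjusted p = 6.9e-42) was joined by that of Smox (spermine oxidase), from 161 ± 2.54 to 24.03 ± 1.24 CPM, while arginase 1 (Arg1) rose from 0.145 ± 0.0399 to 1.59 ± 0.369 CPM. Among these 19 genes 7 rose, 10 fell and 2 did not pass (with library totals alone, 10 up and 8 down), with a median of -0.45 that turned to 0.19 under the latter.

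**Figure D3:**
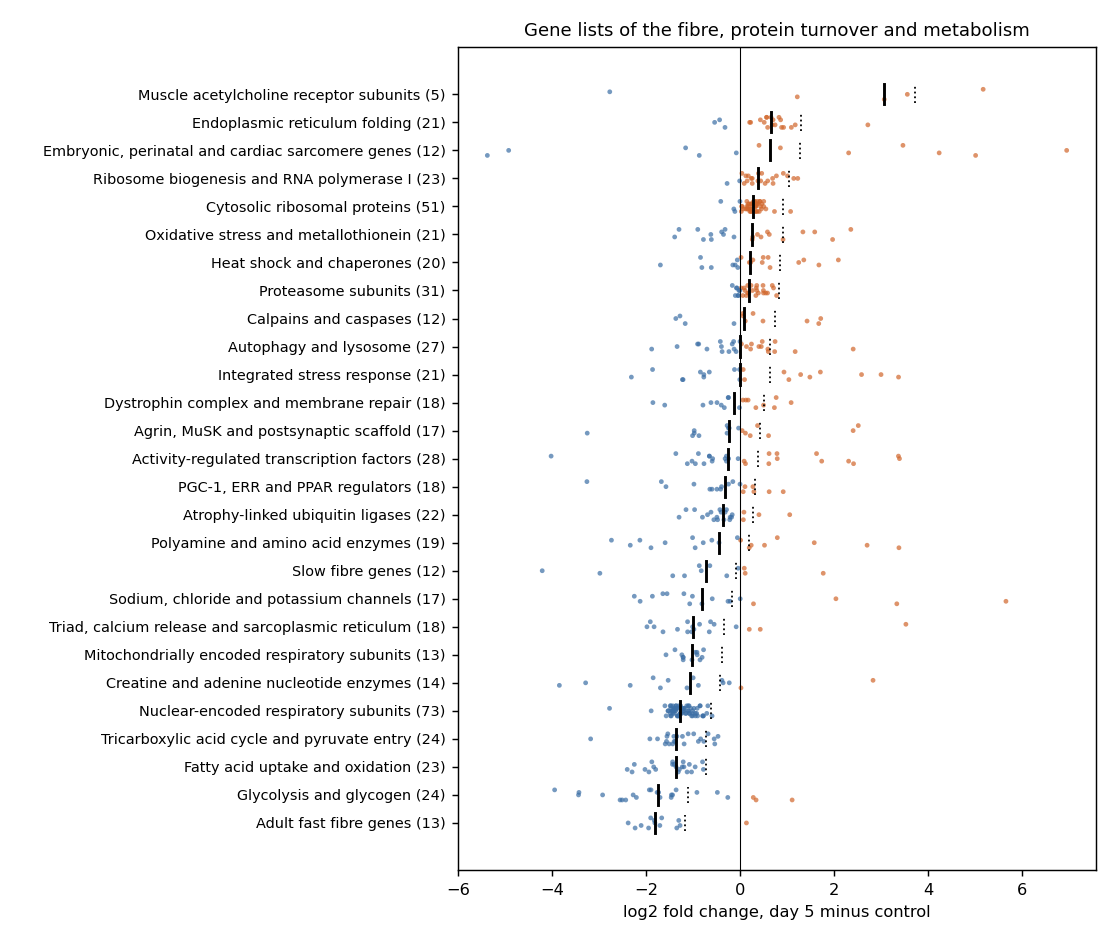
Log2 fold change of day 5 minus control for each tested member of lists on the fibre, protein turnover and metabolism, with the number tested in brackets. Solid bars are list medians under TMM and dotted bars the medians with library totals alone; the adult fast fibre and glycolysis lists lie lowest and the receptor subunits highest.

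The ubiquitin ligases best known from muscle atrophy changed by less than 2-fold. Trim63 (MuRF1), which marks thick filament proteins for breakdown, stood at 2884, 3152, 3013 and 3085 CPM in control and 2290.2, 2369, 2382 and 2495 CPM at day 5. The day 5 libraries were all lower than control (log2 fold change -0.35 ± 0.025, edgeR adjusted p = 1.2e-16), but with library totals alone the change turned to 0.30. Fbxo32 (atrogin-1) stood at 2209.8, 2179, 2243 and 2221 CPM in control and 1582, 1581, 1549.7 and 1560.1 CPM at day 5. It too fell after TMM (log2 fold change -0.50 ± 0.017, edgeR adjusted p = 1.1e-28) and turned to 0.15 with library totals alone. Neither gene reached 2-fold under either scaling. Trim54 (MuRF3) fell from 334 ± 16.8 to 136 ± 4.58 CPM and Fbxo21 from 44.2 ± 2.57 to 19.8 ± 0.86 CPM under both scalings, while Mdm2, the ligase of p53, rose from 75.6 ± 4.59 to 157 ± 7.15 CPM. Of 22 ligases 3 rose, 17 fell and 2 did not pass (median -0.38), whereas with library totals alone 16 rose and 4 fell (median 0.27).

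Most proteasome subunits rose, by little: of 31, 21 rose, 4 fell and 6 did not pass (median 0.18), and with library totals alone all 31 rose. Psmd14, the deubiquitinating lid subunit, had the largest change, from 65.9 ± 2.38 to 113 ± 3.87 CPM, and Psmd11 went from 255 ± 3.96 to 273 ± 10.9 CPM (log2 fold change 0.10 ± 0.026, edgeR adjusted p = 7.0e-04). Autophagy and lysosome genes divided evenly, with 12 of 27 rising and 12 falling, not far from the 38.5% and 35.8% of all genes. With library totals alone 22 rose and 5 fell, when 10291 of all 14246 genes were called higher. Ulk1, the kinase that starts autophagy, fell from 382 ± 6.79 to 103 ± 4.93 CPM, the lysosomal regulator Tfeb from 80.8 ± 2.71 to 31.8 ± 1.1 CPM, and Map1lc3a (LC3A) rose from 212 ± 5.58 to 475 ± 11.6 CPM. Ctss (cathepsin S), a protease of antigen-presenting cells, rose from 33.6 ± 0.999 to 178 ± 6.84 CPM. Among 12 calpain and caspase genes 6 rose, 3 fell and 3 did not pass (with library totals alone, 9 up and 3 down). Capn3, the muscle calpain, fell from 197 ± 3.26 to 76.2 ± 2.95 CPM.

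Most genes for making and folding protein rose. Of 51 cytosolic ribosomal protein genes 44 rose, 3 fell and 4 did not pass (median 0.27), and with library totals alone all 51 rose. Rpl3, whose muscle-restricted relative Rpl3l replaces it in adult fibres, led them, from 271 ± 7.86 to 570.0 ± 14.8 CPM (log2 fold change 1.07 ± 0.022, edgeR adjusted p = 4.9e-38). In ribosome biogenesis 17 of 23 rose and 1 fell (all 23 rose with library totals alone), with Myc from 13.8 ± 1.003 to 32.4 ± 0.699 CPM. In the endoplasmic reticulum 18 of 21 folding genes rose and 3 fell (median 0.65). Hspa5 (BiP) rose from 133 ± 5.72 to 283 ± 9.32 CPM and Hsp90b1 from 75.8 ± 2.74 to 171 ± 4.61 CPM. Of 20 heat shock genes 11 rose, 5 fell and 4 did not pass (with library totals alone, 16 up and 2 down). Hspb8, a small chaperone of damaged filaments, rose from 509 ± 11.4 to 2166 ± 25.4 CPM, and Hspb6 fell from 918 ± 36.7 to 282 ± 7.3 CPM. The integrated stress response list was divided much as all genes were (38.5% up, 35.8% down), with 8 of 21 rising and 9 falling. With library totals alone the counts were 13 and 5.

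Within the Gadd45 family the members separated. Gadd45a, a stress gene that remodels myonuclei in denervated fibres (chromosome 6, 67035096 to 67037457, minus strand), stood at 62.2, 71.2, 65.3 and 60.8 CPM in control and 710.4, 696, 719 and 702 CPM at day 5. It rose 10.9-fold without overlap (log2 fold change 3.44 ± 0.031, edgeR adjusted p = 1.3e-52). Gadd45b fell from 75.2 ± 4.75 to 11.4 ± 0.523 CPM and Gadd45g from 52.6 ± 4.02 to 6.91 ± 0.273 CPM. The cell cycle inhibitor Cdkn1a (p21) rose from 103 ± 2.84 to 408 ± 3.27 CPM (log2 fold change 1.99 ± 0.03, edgeR adjusted p = 6.3e-44), and the p53 target Pmaip1 (Noxa) from 0.394 ± 0.231 to 3.16 ± 0.329 CPM. Among 19 genes of growth arrest and p53 10 rose, 8 fell and 1 did not pass (with library totals alone, 12 up and 6 down).

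In the BMP branch the ligands Gdf5 and Gdf6 rose, against a list median of -0.06. Gdf5, a BMP ligand that restrains denervation atrophy (chromosome 2, 155941023 to 155945367, minus strand), stood at 0.428, 0.333, 0.0803 and 0.336 CPM in control and 27.4, 30.6, 29.2 and 30.6 CPM at day 5. Control values were close to 0, and the rise was 98.6-fold (log2 fold change 6.62 ± 0.18, edgeR adjusted p = 3.9e-33). Gdf6, its close relative, went from 0.433 ± 0.384 to 3.17 ± 0.451 CPM, 7.16-fold with all libraries and 11.2-fold without control replicate 2. Grem1, a secreted BMP antagonist, stood at 0, 0.0834, 0 and 0.084 CPM in control and 4.08, 4.33, 3.75 and 3.55 CPM at day 5, a ratio of 94.2 with a 95% counting interval of 25.9 to 782. Id2, a target of BMP signalling, rose from 12.7 ± 1.99 to 62.6 ± 2.12 CPM. Of 23 genes in the branch 8 rose, 10 fell and 5 did not pass (with library totals alone, 16 up and 2 down). These counts lay near the 38.5% and 35.8% of all genes. In the opposing branch Mstn (myostatin), the inhibitor of muscle growth, fell from 44.3 ± 2.52 to 12.8 ± 1.28 CPM (log2 fold change -1.79 ± 0.066, edgeR adjusted p = 5.8e-28). Acvr2b, its receptor, stood at 10.02, 12.1, 9.96 and 9.83 CPM in control and 1.58, 1.82, 1.99 and 1.08 CPM at day 5, a 6.48-fold fall (log2 fold change -2.70 ± 0.18, edgeR adjusted p = 6.0e-18). Inhba (activin A) rose from 0.773 ± 0.217 to 2.81 ± 0.0544 CPM. Of 22 genes of this axis 9 rose, 10 fell and 3 did not pass (with library totals alone, 18 up and 4 down).

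Growth and trophic ligands changed individually. Igf1, the main local growth factor of muscle, rose from 23.4 ± 2.28 to 57.5 ± 2.59 CPM, its binding proteins Igfbp5 from 218 ± 8.95 to 558 ± 8.09 CPM and Igfbp2 from 0.457 ± 0.218 to 2.97 ± 0.302 CPM, and the receptor adaptor Irs1 fell from 48.7 ± 1.42 to 24.5 ± 1.01 CPM. Of 27 genes of that axis and mTOR 14 rose, 9 fell and 4 did not pass (with library totals alone, 22 up and 2 down). Gdnf, a survival factor for motor neurons, stood at 0.599, 0.417, 0.402 and 0.504 CPM in control and 8.44, 8.39, 7.11 and 11.0004 CPM at day 5. It rose 18.02-fold (log2 fold change 4.17 ± 0.23, edgeR adjusted p = 2.0e-21). Bdnf, another neurotrophin, went from 1.17 ± 0.343 to 0.555 ± 0.244 CPM (log2 fold change -1.07 ± 0.38, edgeR adjusted p = 0.011), a call lost without day 5 replicate 4 or control replicate 4 and with library totals alone (edgeR adjusted p 0.058, 0.071 and 0.29). Fgfbp1, a muscle-derived carrier of fibroblast growth factors that maintains the junction, fell from 6.15 ± 1.06 to 0.0676 ± 0.0807 CPM, 83.2-fold with all libraries and 144-fold without day 5 replicate 2. Cntf, a trophic factor of Schwann cells, fell from 6.11 ± 0.319 to 1.4 ± 0.424 CPM. Over the 27 trophic ligands tested 9 rose, 11 fell and 7 did not pass (median -0.31, 0.34 with library totals alone). Among 17 secreted hormones and ligands 7 rose, 7 fell and 3 did not pass (with library totals alone, 10 up and 6 down). Ostn (musclin) fell from 4.22 ± 0.577 to 0.574 ± 0.0905 CPM. Fgf21 and Gdf15, stress hormones, averaged under 1 CPM in both groups. Fgf21 had 1 count in the 4 control libraries and 21 at day 5, a ratio of 13.5 with a 95% counting interval of 2.17 to 559, and without control replicate 2 at least 3.38-fold. Gdf15 went from 0.102 ± 0.101 to 0.66 ± 0.261 CPM, 5.99-fold with all libraries and 10.5-fold without control replicate 3.

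Activity-driven and hormonal programmes were also split. The immediate early genes Fos and Egr1, which contraction induces, were far lower at day 5. Fos stood at 115, 109, 112 and 107 CPM in control and 7.4, 7.53, 8.44 and 8.07 CPM at day 5, a 14.1-fold fall (log2 fold change -3.81 ± 0.07, edgeR adjusted p = 2.7e-40). Egr1 fell from 134 ± 6.7 to 14.96 ± 0.722 CPM. Nr4a3, an orphan receptor that exercise induces, rose from 0.998 ± 0.153 to 16.4 ± 0.89 CPM. Of 19 such genes 9 rose, 9 fell and 1 did not pass (with library totals alone, 10 up and 7 down), with medians of -0.38 and 0.26. For comparison, 38.5% of all genes rose and 35.8% fell. Sgk1, a kinase induced by glucocorticoids, stood at 84.8, 76.4, 75.1 and 77.1 CPM in control and 506, 516, 493 and 508 CPM at day 5. The rise was 6.46-fold (log2 fold change 2.69 ± 0.031, edgeR adjusted p = 1.6e-48), and the metallothioneins Mt2 and Mt1 rose from 71.3 ± 4.76 to 364 ± 20.7 CPM and from 81.99 ± 4.21 to 246 ± 15.9 CPM. The fasting genes Angptl4 and Depp1 fell, from 149.9 ± 5.26 to 28.8 ± 1.22 CPM and from 368 ± 10.2 to 114 ± 5.26 CPM. Among 17 glucocorticoid and fasting-type genes 7 rose, 9 fell and 1 did not pass (with library totals alone, 9 up and 5 down), with medians of -0.16 and 0.48. In the clock Per2 rose from 10.8 ± 1.12 to 29.9 ± 1.68 CPM, while Npas2 and Bhlhe41 fell, the latter from 26.04 ± 0.893 to 11.1 ± 0.477 CPM. Of 18 clock genes 5 rose, 11 fell and 2 did not pass (with library totals alone, 11 up and 5 down), with medians of -0.27 and 0.37. The sources used here give no hour of tissue collection.

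Of 30 genes of vesicle formation and release 15 rose, 9 fell and 6 did not pass (with library totals alone, 24 up and 3 down), and the median was 0.20. The shares of all genes were 38.5% up and 35.8% down. Cd63, a tetraspanin of exosomes, rose from 142 ± 4.4 to 227 ± 2.96 CPM (log2 fold change 0.67 ± 0.027, edgeR adjusted p = 2.0e-26), and Cd82 from 25.6 ± 1.97 to 78.8 ± 1.75 CPM, while Tspan8 fell from 122 ± 3.42 to 30.2 ± 1.36 CPM. Hgs, which sorts cargo into vesicles, rose from 89.4 ± 6.99 to 213 ± 2.85 CPM. Rab27a, the GTPase that docks vesicles for release, was at 12.9 ± 1.78 CPM in control and 14.4 ± 0.436 at day 5 and did not pass (log2 fold change 0.16 ± 0.10, edgeR adjusted p = 0.15), but was called higher with library totals alone.

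Most listed genes of the myelinating Schwann cells that ensheath the nerve fell, and most listed genes of repair Schwann cells rose. Prx (periaxin), a scaffold protein of the myelin sheath of peripheral nerve (chromosome 7, 27499324 to 27520214, plus strand), stood at 49.1, 49.01, 49.01 and 45.9 CPM in control and 3.81, 3.31, 4.36 and 3.96 CPM at day 5. It fell 12.5-fold without overlap (log2 fold change -3.64 ± 0.10, edgeR adjusted p = 2.7e-32). Drp2, its partner, fell from 37.5 ± 3.44 to 4.5 ± 1.19 CPM, and Ncmap from 5.99 ± 0.411 to 0.389 ± 0.149 CPM. Of 13 genes of myelinating Schwann cells 4 rose, 8 fell and 1 did not pass (with library totals alone, 5 up and 8 down), and the summed level was 608 to 668 CPM in control and 185 to 194 CPM at day 5. Prx, Drp2 and Ncmap were named for the size of their change, and the 4 members that rose are not named here. Among 11 tested of 12 genes of repair Schwann cells 10 rose and 1 did not pass (median 2.92). Ngfr (p75), their surface marker, rose from 12.4 ± 1.45 to 66.96 ± 1.53 CPM. Shh and Olig1 had no count in any control library. Shh reached 1.63, 1.71, 2.32 and 1.85 CPM (at least 30.01-fold) and Olig1 4.19, 2.78, 4.19 and 2.93 CPM (at least 56.2-fold), each bound against a floor of 3 counts over the 4 control libraries. Btc rose from 0.682 ± 0.506 to 6.92 ± 0.339 CPM. Gap43, a growth-cone gene that repair Schwann cells also express, rose from 0.372 ± 0.193 to 2.06 ± 0.343 CPM, while Prph, a neuronal intermediate filament, was at 1.08 ± 0.193 CPM in control and 0.563 ± 0.0462 at day 5 (log2 fold change -0.94 ± 0.33, edgeR adjusted p = 0.0104), a call lost with library totals alone.

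Satellite cell and fusion genes were mixed. Pax7, the marker of muscle stem cells, stood at 9.59, 9.75, 8.03 and 10.5 CPM in control and 4.46, 4.06, 4.36 and 5.71 CPM at day 5. It fell 2.03-fold (log2 fold change -1.02 ± 0.13, edgeR adjusted p = 1.8e-09). Vcam1, which satellite cells share with inflamed vessels and lymphoid stroma, rose from 12.7 ± 1.92 to 88.2 ± 4.76 CPM, and Mymx, a fusion peptide gene, from 0.479 ± 0.34 to 2.43 ± 0.154 CPM. Of 14 genes 8 rose and 6 fell (with library totals alone, 9 up and 4 down). In the matrix Col1a1, the chief fibrillar collagen, stood at 1322, 1313, 1298 and 1322 CPM in control and 644, 645, 670.1 and 683 CPM at day 5, with day 5 lower in all libraries (log2 fold change -0.99 ± 0.019, edgeR adjusted p = 3.2e-39). Col19a1, a minor collagen that muscle cells make, stood at 0.599, 0.584, 0.803 and 0.168 CPM in control and 24.3, 21.3, 22.999 and 25.7 CPM at day 5. The rise was 43.02-fold (log2 fold change 5.43 ± 0.15, edgeR adjusted p = 2.4e-32). Of 27 matrix genes 11 rose and 16 fell (median -0.47), and with library totals alone 17 rose and 9 fell (median 0.18). The 14 genes of fibro-adipogenic progenitors had 6 rises and 8 falls (median -0.11), all 14 being higher with library totals alone. Of 19 proteases and inhibitors 9 rose, 6 fell and 4 did not pass (with library totals alone, 16 up and 1 down). Mmp3 rose from 1.18 ± 0.548 to 13.3 ± 1.35 CPM and Mmp19 from 5.23 ± 0.329 to 33.9 ± 1.52 CPM, and the inhibitor Timp1 from 1.28 ± 0.446 to 8.75 ± 0.994 CPM. In tendon 7 of 9 genes fell (6 with library totals alone). Scx, the transcription factor of tendon cells, rose from 3.46 ± 0.697 to 31.3 ± 4.16 CPM, whereas Tnmd and Fmod, products of mature tendon, fell from 43.9 ± 1.254 to 10.9 ± 1.03 CPM and from 754 ± 30.6 to 215 ± 5.06 CPM.

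Vessel genes fell. All 12 endothelial genes did so (median -1.06), their sum being 2351 to 2457 CPM in control and 1022 to 1063 CPM at day 5. With library totals alone 10 still fell and none rose. Cldn5, the tight junction claudin of endothelium, stood at 186, 193, 189 and 185 CPM in control and 38.9, 34.9, 36.5 and 34.4 CPM at day 5. Its groups lay far apart (log2 fold change -2.38 ± 0.044, edgeR adjusted p = 6.9e-40), and Cdh5 (VE-cadherin) fell from 647 ± 23.3 to 208 ± 11.1 CPM. All 11 pericyte and smooth muscle genes fell too (median -0.77), such as Kcnj8, from 57.7 ± 3.39 to 18.02 ± 0.451 CPM, although with library totals alone 1 rose and 8 fell. Erythroid genes, which red cell precursors and reticulocytes express, fell in all 8 cases under either scaling. The beta globin Hbb-bs stood at 385, 385, 390.0 and 383 CPM in control and 123, 119, 126 and 126 CPM at day 5. The alpha and beta globin copies are nearly identical, so reads could be split between them. Adipocyte genes rose in 7 of 11 and fell in 3 (median 1.26, or 1.19 with genes at no control count set to their lower bound), with Adipoq from 13.5 ± 1.48 to 35.3 ± 0.967 CPM and Plin1 from 2.8 ± 0.584 to 15.4 ± 0.568 CPM. Their sum moved the other way, from 967 to 981 CPM in control down to 607 to 627 at day 5.

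Genes of lymphocytes and of lymphoid tissue rose by large factors. The sum of 15 B cell genes was 32.6 to 35.5 CPM in control and 347 to 358 CPM at day 5, that of 26 T and natural killer cell genes 12.8 to 16.3 CPM in control and 294 to 299.9 CPM at day 5, and that of 18 immunoglobulin and plasma cell genes 58.5 to 65.4 CPM in control and 682 to 729 CPM at day 5. Of the B cell genes 14 rose and 1 did not pass (median 6.31), of the T and natural killer genes all 26 rose (median 5.09), and of the immunoglobulin genes 15 rose, 1 fell and 2 did not pass (median 4.95). Cd79a, a signalling chain of the B cell receptor, stood at 0.428, 0.167, 0.161 and 0.336 CPM in control and 52.04, 44.4, 44.6 and 52.6 CPM at day 5. Cd3e, a T cell receptor chain, stood at 0.428, 0, 0.161 and 0.42 CPM in control and 5.06, 5.18, 5.13 and 3.8 CPM at day 5. These markers were thus near 0 in control and present in each of the 4 day 5 libraries. Ighm, the mu heavy chain, rose from 27.6 ± 3.47 to 304 ± 3.25 CPM, Ighd from 0.601 ± 0.264 to 70.7 ± 2.31 CPM, and Igkc from 1.63 ± 0.791 to 104 ± 7.86 CPM. Ighg3, a gamma heavy chain of class-switched cells, had no count in control and stood at 81.2, 75.1, 74.2 and 71.2 CPM at day 5 (at least 1206-fold). Constant-region genes resemble one another, so counts could be shared among them.

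Genes of the vessels and stroma of lymph nodes moved with them. Glycam1, a mucin made by high endothelial venules, where lymphocytes enter nodes, had no count in control and stood at 51.5, 54.8, 48.8 and 51.04 CPM at day 5 (at least 825-fold). Madcam1 and Chst4, of the same venules, also had none in control and averaged 1.62 ± 0.358 and 1.43 ± 0.543 CPM at day 5. Cr2, of follicular cells, had 1 control count and 906 at day 5, a ratio of 583 with a 95% counting interval of 104 to 23039, and without control replicate 2 at least 146-fold. Of 13 genes on this list 12 rose and 1 fell, and 3 of them had no count in control. Cxcl13 and Ccr7, which position lymphocytes in follicles and T cell zones, rose from 0.539 ± 0.161 to 13.8 ± 1.58 CPM and from 0.295 ± 0.243 to 13.99 ± 1.54 CPM. Macrophage genes of node sinuses and spleen, Marco and Cd209b, rose from 0.0822 ± 0.0949 to 83.3 ± 4.35 CPM and from 1.85 ± 0.471 to 165 ± 9.04 CPM. Cd5l, also of tissue macrophages, had no count in control and averaged 24.2 ± 1.67 CPM at day 5. All 4 day 5 libraries carried these genes, so no day 5 value without them exists, and their part in the other immune results was not tested.

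**Figure D4:**
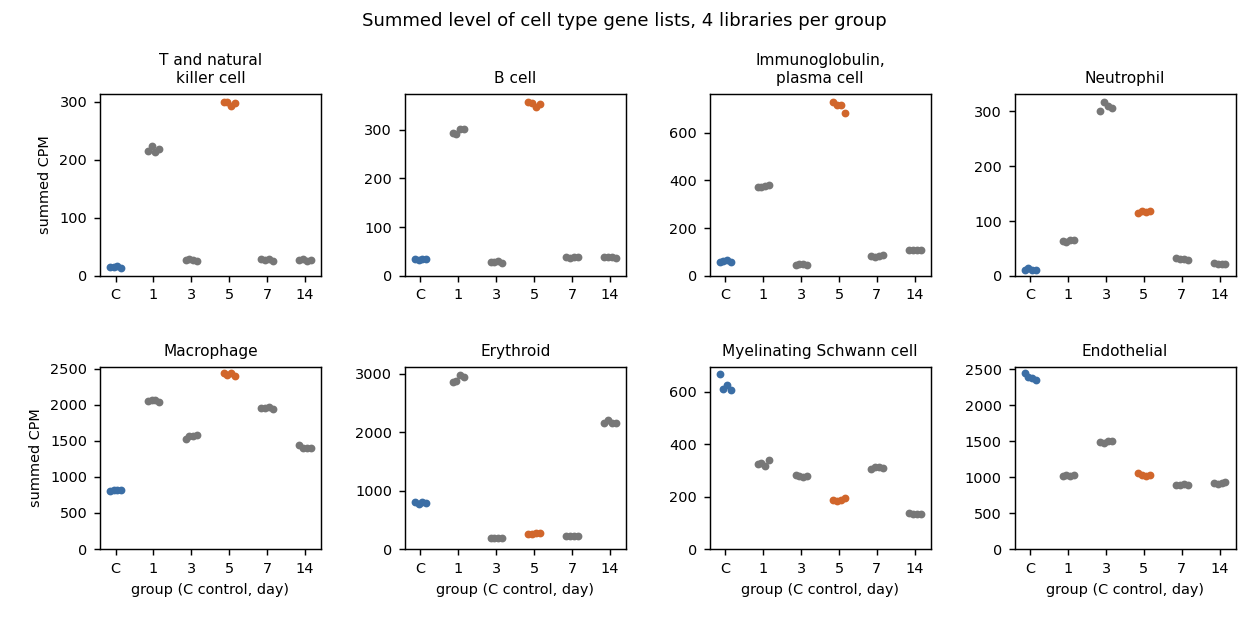
Summed TMM-scaled CPM of 8 cell type lists in each library of control (C, blue), day 5 (orange) and the other days (grey), on axes that start at 0. T, B and immunoglobulin sums are high at days 1 and 5 and low in the other groups, neutrophil genes peak at day 3, erythroid genes are high at days 1 and 14, and endothelial genes are lower in all groups after denervation than in control.

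Myeloid genes rose as well. All 23 macrophage genes did so (median 1.78), with sums of 804 to 825 CPM in control and 2395 to 2440.3 CPM at day 5. Adgre1 (F4/80), the pan-macrophage marker, stood at 23.9, 22.8, 24.6 and 21.7 CPM in control and 55.7, 54.3, 53.99 and 54.1 CPM at day 5, a 2.35-fold rise (log2 fold change 1.23 ± 0.056, edgeR adjusted p = 3.9e-24). All 13 neutrophil genes tested rose (median 5.27). S100a9 went from 0.167 ± 0.069 to 18.5 ± 1.57 CPM and S100a8 from 0.182 ± 0.265 to 31.3 ± 0.179 CPM, the latter 161-fold with all libraries and 496-fold without control replicate 3. Of 17 complement genes 16 rose and 1 fell, with C3 from 170.2 ± 3.8 to 876 ± 7.59 CPM and C4b from 47.8 ± 2.6 to 284 ± 1.29 CPM. Of 17 MHC class II and dendritic cell genes 15 rose, 1 fell and 1 did not pass, and of 29 chemokine and receptor genes 24 rose, 2 fell and 3 did not pass. Ccl8 rose from 2.14 ± 0.672 to 58.1 ± 3.57 CPM. Of 24 interferon-stimulated genes 15 rose, 6 fell and 3 did not pass (with library totals alone, 18 up and 2 down). Oas3 rose from 1.07 ± 0.408 to 4.4 ± 0.915 CPM, and Ifit3 fell from 33.6 ± 2.4 to 17.4 ± 0.226 CPM. Of 25 genes of cell division 24 rose and 1 fell (median 1.45). Mki67, the proliferation marker, went from 1.8 ± 1.23 to 9.97 ± 0.82 CPM and Top2a from 1.82 ± 0.714 to 10.1 ± 1.21 CPM. Lymphoid genes rose in the same libraries, and their part in this was not tested.

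The 15 largest rises among genes whose groups did not overlap and whose log2 CPM averaged at least 1 over all 24 libraries, unnamed gene models aside, held Ankrd1 and mainly genes of lymphoid cells, granulocytes and secreted proteins. That limit leaves out genes near 0 in most other groups, such as Ighg3, Glycam1, Marco and Cd5l, whose rises were larger than that of Ankrd1. Bpifb1, a secreted lipid-binding protein of airway epithelium, had no count in control and stood at 23.4, 19.3, 21.3 and 19.6 CPM at day 5 (at least 334-fold). Krt18, an intermediate filament of simple epithelia, stood at 2.48, 3.92, 2.57 and 4.37 CPM in control and 282, 292, 286 and 288 CPM at day 5. It rose 85.96-fold without overlap (log2 fold change 6.43 ± 0.061, edgeR adjusted p = 6.2e-52). Cd22, a B cell lectin, rose from 0.419 ± 0.256 to 37.6 ± 1.34 CPM. Trdc, a constant region of the T cell receptor delta chain, had 1 control count (a ratio of 306 with a 95% counting interval of 54.7 to 12116; without control replicate 2 at least 76.6-fold). Mup18, one of a cluster of near-identical urinary protein genes, had 1 (a ratio of 269 with a 95% counting interval of 47.98 to 10643; without control replicate 2 at least 67.2-fold). Orm1, an acute-phase protein with close copies, went from 0.0621 ± 0.0802 to 9.52 ± 0.667 CPM (a ratio of 152 with a 95% counting interval of 51.9 to 739.8; 137-fold with all libraries and 275-fold without control replicate 4). The other 8 of these 15, namely Cd79a, S100a8, S100a9, Ankrd1, Ighd, Gdf5, Cd209b and Igkc, are given above.

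The 15 largest falls under the same rule were mostly of genes known from muscle fibres. Beside Actc1 they held Smco1, a single-pass membrane protein gene, from 49.5 ± 1.48 to 1.43 ± 0.235 CPM, Mlf1, from 341 ± 11.6 to 14.3 ± 0.354 CPM, and Mettl21c, a lysine methyltransferase of muscle, from 100.2 ± 3.94 to 4.52 ± 0.664 CPM. Asb18, a muscle ankyrin repeat gene, fell from 53.7 ± 1.69 to 2.66 ± 0.309 CPM and Fhl3, a LIM protein of fibres, from 691 ± 14.9 to 36.5 ± 2.04 CPM (log2 fold change -4.25 ± 0.033, edgeR adjusted p = 2.9e-55). Acot1, an acyl-CoA thioesterase with close copies, fell from 66.3 ± 2.08 to 3.95 ± 0.365 CPM. Fbp2, the muscle fructose bisphosphatase, fell from 132 ± 7.37 to 8.32 ± 0.632 CPM, Dhrs7c, a retinol dehydrogenase of the sarcoplasmic reticulum, from 152 ± 5.69 to 10.1 ± 0.594 CPM, and Rhbdl1 from 16.4 ± 0.341 to 1.08 ± 0.369 CPM. Myl3, Pfkfb1, Ckmt2 and Fos were also among them.

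Direct tests against the neighbouring days 3 and 7, and against day 1, share the day 5 libraries with the comparison above. They placed day 5 in the series. Against day 3, 11017 genes changed (77.3%), 5436 higher (38.2%) and 5581 lower (39.2%) at day 5. With library totals alone the split was 7353 higher and 3622 lower. The subunits Chrna1, Chrnb1, Chrnd and Chrng were higher at day 5 than at day 3: Chrna1 was at 43.1 ± 2.43 CPM at day 3 and 318 ± 5.5 at day 5 (log2 difference 2.88 ± 0.031, edgeR adjusted p = 3.4e-49), and Chrng at 0.563 ± 0.0976 CPM at day 3 and 13.8 ± 1.19 at day 5 (log2 difference 4.60 ± 0.14, edgeR adjusted p = 7.5e-31). Krt18 followed the same order, at 4.02 ± 0.351 CPM at day 3 and 287 ± 4.35 at day 5. Musk and Myog were lower at day 5: Musk was at 68.9 ± 1.82 CPM at day 3 and 47.3 ± 2.5 at day 5 and Myog at 132 ± 6.72 CPM at day 3 and 106 ± 3.92 at day 5. Among the largest differences from day 3 under the same limit on mean level were the lymphoid genes Ighd, Cd79a, Igkc, Cd22, Jchain and Cd79b, of which Jchain was at 0.364 ± 0.0911 CPM at day 3 and 29.5 ± 2.21 at day 5. Lower at day 5 than at day 3 were the inducible chaperones Hspa1a and Hspa1b, which are near-identical copies, with Hspa1a at 271 ± 10.3 CPM at day 3 and 11.9 ± 0.79 at day 5, and the acute-phase gene Lcn2, at 181 ± 2.97 CPM at day 3 and 8.7 ± 0.612 at day 5. Slc25a25, a mitochondrial ATP carrier, was at 357 ± 10.04 CPM at day 3 and 19.6 ± 2.55 at day 5, and G0s2, an inhibitor of fat breakdown, at 56.3 ± 0.972 CPM at day 3 and 3.84 ± 0.72 at day 5. Slfn4 was at 32.9 ± 1.15 CPM at day 3 and 1.66 ± 0.495 at day 5 and Saa3 at 36.3 ± 2.63 CPM at day 3 and 1.94 ± 0.318 at day 5. Against control, Saa3 was higher, 2.38-fold with all libraries and 3.66-fold without control replicate 4. Hspa1a was called lower than in control, a call lost with library totals alone (log2 fold change -0.17, edgeR adjusted p = 0.065). Hspa1b did not pass, at 9.67 ± 1.79 CPM in control and 8.97 ± 0.693 at day 5. The log2 median of the respiratory subunits was -0.84 against day 3, that of the fatty acid genes -0.82, and that of the heat shock genes -1.13.

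Against day 7, 9711 genes changed (68.2%), 4899 higher (34.4%) and 4812 lower (33.8%) at day 5. With library totals alone the split was 3790 higher and 6140 lower. All 5 receptor subunits were lower at day 5, with Chrng at 66.5 ± 1.4 CPM at day 7 and 13.8 ± 1.19 at day 5 and Chrna1 at 762 ± 8.67 CPM at day 7 and 318 ± 5.5 at day 5 (log2 difference -1.26 ± 0.024, edgeR adjusted p = 5.5e-39). Fasn, fatty acid synthase, was at 1242 ± 12.4 CPM at day 7 and 67.3 ± 3.63 at day 5 (log2 difference -4.21 ± 0.03, edgeR adjusted p = 4.2e-56). Cish, a target of STAT5, was at 51.2 ± 2.23 CPM at day 7 and 5.32 ± 0.676 at day 5, Igfals, a carrier of insulin-like growth factors, at 11.8 ± 1.0001 CPM at day 7 and 0.979 ± 0.205 at day 5, Fam83d, a spindle gene, at 30.3 ± 1.8 CPM at day 7 and 2.39 ± 0.345 at day 5, and Aldh1a7 at 13.6 ± 1.57 CPM at day 7 and 0.319 ± 0.281 at day 5. Tmem45b was at 16.96 ± 0.72 CPM at day 7 and 0.52 ± 0.117 at day 5, while in control it was at 0.437 ± 0.267 CPM, which did not differ past the threshold (log2 fold change 0.25 ± 0.35, edgeR adjusted p = 0.55). Under the limit of a mean log2 CPM of at least 1 over the 24 libraries, which leaves out Ighg3, the 8 largest differences on the higher side were the immunoglobulin and B cell genes again, Cd209b, and Depp1, which was at 2.29 ± 0.592 CPM at day 7 and 114 ± 5.26 at day 5. Trim63 and Fbxo32 were both higher at day 5 than at day 7, at 326 ± 11.8 CPM at day 7 and 2384 ± 84.3 at day 5 (log2 difference 2.87 ± 0.028, edgeR adjusted p = 1.1e-50) and 397 ± 5.16 CPM at day 7 and 1568 ± 15.8 at day 5. The 17 glucocorticoid and fasting-type genes had a log2 median of 2.16 against day 7.

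Against day 1, 8234 genes changed (57.8%), 4128 higher (29.0%) and 4106 lower (28.8%) at day 5, and 4943 higher and 3376 lower with library totals alone. Chrna9, a nicotinic subunit foreign to adult muscle, was at 33.3 ± 1.49 CPM at day 1 and 0.58 ± 0.323 at day 5 (log2 difference -5.84 ± 0.15, edgeR adjusted p = 9.4e-34), and in control it was at 1.55 ± 0.285 CPM. Erythroid genes were lower at day 5, with Hbb-bs at 1330.0 ± 33.04 CPM at day 1 and 123 ± 3.28 at day 5 and Alas2, which starts haem synthesis in red cells, at 60.4 ± 1.87 CPM at day 1 and 4.66 ± 0.419 at day 5. Hbb-bt and Hba-a2 were also among the 8 largest differences on this side under that limit. Micall2 was at 6.19 ± 0.352 CPM at day 1 and 66.5 ± 2.38 at day 5 (log2 difference 3.43 ± 0.07, edgeR adjusted p = 1.7e-37), Sln at 26.9 ± 0.541 CPM at day 1 and 189.6 ± 5.37 at day 5, Myh8 at 6.44 ± 0.449 CPM at day 1 and 43.2 ± 2.05 at day 5 and Nr4a3 at 1.6 ± 0.30 CPM at day 1 and 16.4 ± 0.89 at day 5. Abhd15, a hydrolase-fold gene first described in adipocytes, was at 4.55 ± 0.225 CPM at day 1 and 41.995 ± 2.96 at day 5 (log2 difference 3.21 ± 0.11, edgeR adjusted p = 1.2e-28) and at 0.902 ± 0.303 CPM in control. Its level at day 5 was above every other library of the series. The B cell list had a log2 median of 0.23 against day 1, and 6.24 and 6.51 against days 3 and 7. The gamma heavy chain genes were higher at day 5 than at day 1, with Ighg3 at 3.66 ± 0.429 CPM at day 1 and 75.4 ± 4.18 at day 5 (log2 difference 4.36 ± 0.093, edgeR adjusted p = 3.6e-33) and Ighg2b at 2.73 ± 0.568 CPM at day 1 and 44.8 ± 2.01 at day 5. Against control Ighg2b had 2 counts in 4 libraries (a ratio of 1076 with a 95% counting interval of 298 to 8891; without control replicate 3 at least 532-fold).

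**Figure D5:**
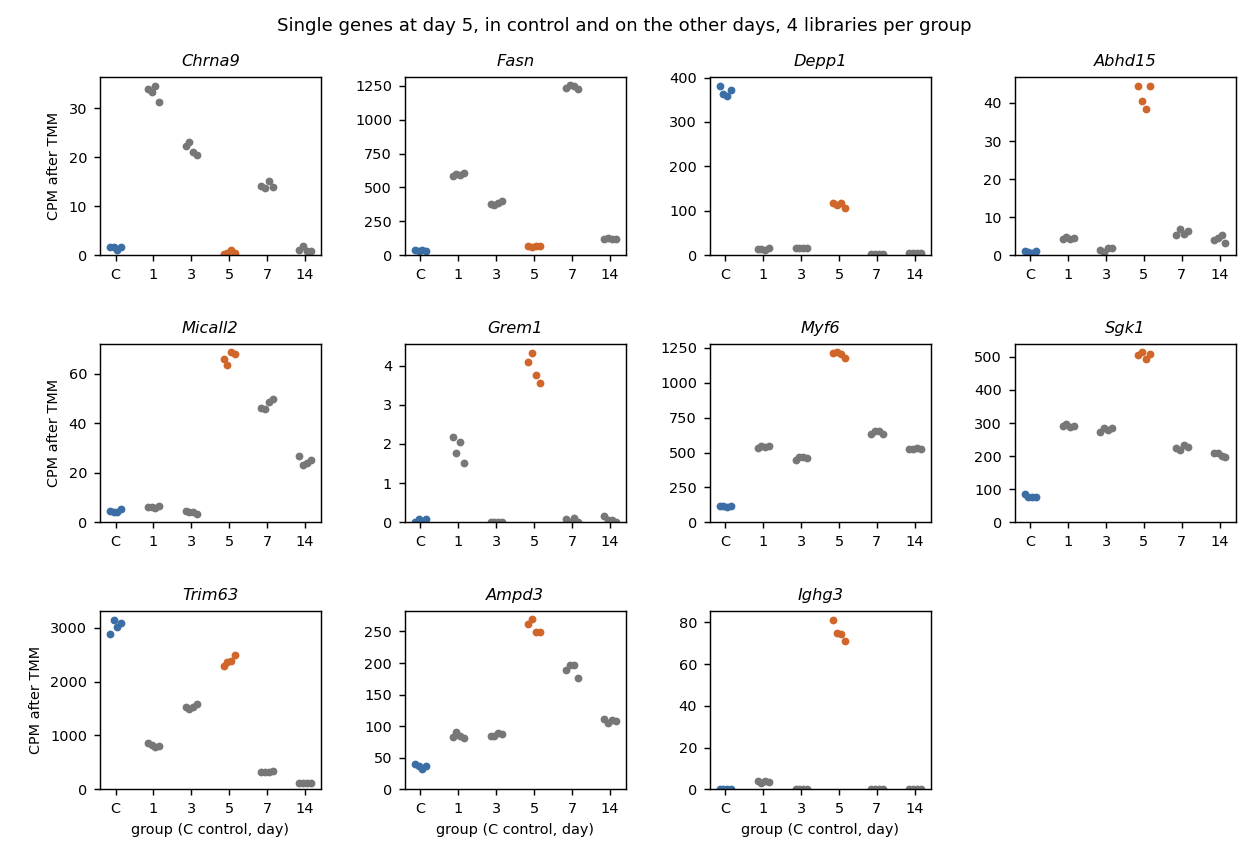
TMM-scaled CPM of 11 genes in each library of control (C, blue), day 5 (orange) and the other days (grey), on axes that start at 0. Abhd15, Grem1, Myf6, Sgk1, Ampd3, Micall2 and Ighg3 are highest at day 5, and Chrna9 and Fasn are low at day 5 between higher days.

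At day 5, 818 genes (5.74%) were higher, and 553 (3.88%) lower, than in control and at days 1, 3 and 7 by each of the 4 tests with all 4 day 5 libraries beyond the other 20. Myf6 was among the former, at 1203 ± 17.9 CPM at day 5 against 643 ± 13.1 at day 7, and Sgk1 at 506 ± 9.35 against 292 ± 3.55 at day 1. Among the latter was Myl3, at 33.5 ± 1.38 against 83.6 ± 3.93 at day 1. Bhlhe41, a repressor that works with the clock, was at 11.1 ± 0.477 at day 5 and 22.9 ± 0.948 at day 1. The calcium release gene Sypl2 was lower at day 5, at 118 ± 0.549, than at day 3, at 209 ± 5.2.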

How the data were processed

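Poly(A) RNA libraries were sequenced on an Illumina NovaSeq, per the labels' protocols. The authors deposited one table of 21965 genes with expected counts and TPM for each of the 24 libraries, per the file headers. The aligner, genome build and strand setting were not given in the sources used here, so overlapping and antisense genes cannot be told apart. The deposited expected counts (7.01% were not whole) were rounded, and the deposited TPM values were used only to compare levels between genes. Columns of other samples numbered 0. Positions came from GENCODE M21 by gene identifier (21854 matched) and promoter sequences from RefSeq on GRCm38.p6.

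edgeR 4.0.16 (R 4.3.3, with limma 3.58.1) tested 14246 genes passing filterByExpr in 1 quasi-likelihood fit of all 24 libraries, TMM-scaled, with 1 coefficient per group (common biological coefficient of variation 0.0389) and Benjamini-Hochberg adjustment. The error beside a log2 fold change is its standard error. Depth, given in the report, limits precision for low genes; the 95% Poisson intervals and the floor of 3 counts cover counting error only. Alternatives were DESeq2 1.42.0, its size factors, library totals alone, other filters, a replicate block, the 2 groups alone and each library left out. The scripts were tested on simulated data. Genes were named by rule: 48 key genes, the 15 largest changes each way, up to 4 members per list, the 8 largest differences each way from days 1, 3 and 7, and paralogues or partners of these; some genes these rules name are not reported here. Members and lists (64 lists, 1276 entries, 5 not matched) were chosen with earlier results of these data known. CPM values use TMM-scaled library sizes.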

Additional observations from a re-analysis of the deposited data

Results flagged for a closer look

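Among 438 groups of 4 libraries, made of the control and the day 5 values of each gene named, 32 (7.31%) held a library whose gap to the nearest other was large for the range of its group (Dixon's test at 95%). Chance gives about 1 in 20 such groups for continuous, normally distributed values. That rate does not hold where only 1 library of a group had any count, as for Cr2, Fgf21, Mup18, Trdc and Ighg2b in control. The 7.31% is therefore not set against it. Control replicate 1 was above the rest of its group in Mdm2 (82.4 CPM against 72.5 to 74.02). Control replicate 1 was below the rest of its group in Arg1 (0.0856 CPM against 0.161 to 0.168), Lrp4 (15.8 CPM against 16.95 to 17.2) and Nr4a3 (0.771 CPM against 1.04 to 1.09). Control replicate 2 was above the rest of its group in Acvr2b (12.1 CPM against 9.83 to 10.02), Ankrd1 (6.67 CPM against 2.49 to 2.997), Esrra (47.4 CPM against 40.1 to 41.3), Hspa1b (12.3 CPM against 8.52 to 8.99), Hspa5 (142 CPM against 129 to 131), Mybpc2 (10261 CPM against 10045 to 10075) and Tmem45b (0.834 CPM against 0.252 to 0.342). Control replicate 2 was below the rest of its group in Runx1 (9.59 CPM against 11.2 to 11.3). Control replicate 3 was above the rest of its group in Chrne (15.99 CPM against 14.6 to 14.8) and Cox8b (124 CPM against 121). Control replicate 4 was above the rest of its group in Bdnf (1.68 CPM against 0.964 to 1.03) and Myh3 (5.21 CPM against 2.73 to 3.001). Control replicate 4 was below the rest of its group in Ostn (3.36 CPM against 4.45 to 4.58) and Prx (45.9 CPM against 49.01 to 49.1). Day 5 replicate 1 was above the rest of its group in Chrnb1 (124 CPM against 114 to 115). Day 5 replicate 1 was below the rest of its group in Ccr7 (11.7 CPM against 14.6 to 15.1) and Top2a (8.27 CPM against 10.6 to 10.8). Day 5 replicate 2 was below the rest of its group in Chrnd (53.7 CPM against 57.7 to 58.4) and Cpt1b (134 CPM against 142). Day 5 replicate 3 was below the rest of its group in Nlrc5 (14.8 CPM against 17.1 to 17.3). Day 5 replicate 4 was above the rest of its group in Ankrd1 (476 CPM against 462 to 464). Day 5 replicate 4 was below the rest of its group in Cd3e (3.8 CPM against 5.06 to 5.18) and Cs (368 CPM against 384 to 386). Cr2, Fgf21, Mup18 and Trdc had a single control count, in control replicate 2, where it equalled 0.0834 CPM. Ighg2b was counted in control replicate 3 only, at 0.161 CPM.

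Day 5 differed from days 1, 3 and 7 in direct edgeR tests, in 8234 genes from day 1, in 11017 from day 3 and in 9711 from day 7. These tests share the day 5 libraries, and what sets the days apart was not tested.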

How the results depend on the processing

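The count of genes changed against control ranged from 10195 to 11971 over the alternatives other than leaving out libraries, with 10713 by DESeq2. Leaving out a library at a time gave 10358 to 10437 genes against control, 7791 to 7914 against day 1, 10778 to 10895 against day 3 and 9365 to 9472 against day 7. The replicate numbers are shared by the groups, and whether they mark paired libraries is not stated. Deviations of same-numbered libraries from their group means had correlations of -0.00089, -0.041, -0.024 and 0.0056. These low values do not settle pairing, since such deviations also hold the noise of each library. The fit with the replicate number as a block called 10574 genes. The split of calls depended on the scaling: 51.8% were higher after TMM, 52.3% by DESeq2 and 85.97% with library totals alone. Under library totals alone the list medians turned to 0.41 for the agrin and MuSK scaffold, 0.37 for the activity-regulated factors, 0.51 for the dystrophin complex, 0.27 for the ligases, 0.34 for trophic ligands, 0.26 for immediate early genes, 0.48 for glucocorticoid-type genes, 0.37 for clock genes, 0.32 for the PGC-1 list, 0.19 for polyamine enzymes, 0.53 for progenitor genes and 0.18 for collagens. Single genes turned as well, Trim63 to 0.30, Fbxo32 to 0.15 and Hspa1b to 0.54, the last with values from -0.163 to 0.0323 when a library was left out, the highest without control replicate 2. The median of the hormone list turned to -0.0268 in the fit of the 2 groups alone, and that of the keratinocyte list to 1.48 with fewer genes past a CPM filter; the cause was not tested for the others. Genes under about 1 CPM rest on few counts, so their folds are the least certain.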

Other observations

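Some genes that no list held stood highest at day 5; they were chosen after their values were seen. Plin2, which coats lipid droplets, averaged 54.1 ± 1.14 CPM in control and 387 ± 5.44 at day 5 and 101 ± 3.15, 112 ± 5.1, 77.7 ± 2.09 and 37.3 ± 2.74 CPM at days 1, 3, 7 and 14. Slc39a14, a zinc and iron importer, averaged 23.8 ± 1.01 CPM in control and 201 ± 2.48 at day 5 and 46.2 ± 0.604, 58.3 ± 2.94, 30.2 ± 1.45 and 21.7 ± 0.909 CPM on those days. Arrdc3, an alpha-arrestin, averaged 59.9 ± 1.84 CPM in control and 419 ± 9.01 at day 5 and 116 ± 4.4, 80.6 ± 0.871, 139 ± 4.46 and 99.3 ± 4.28 CPM. For each of the 3 genes all 4 day 5 libraries lay above the other 20.

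Among cytokine genes 17 of 22 rose and 3 fell (with library totals alone, 20 up and 1 down), with Nfkb2, a subunit of NF-kappaB, from 21.3 ± 1.6 to 86.8 ± 2.25 CPM. Of 16 genes of MHC class I and the immunoproteasome 10 rose, 2 fell and 4 did not pass (with library totals alone, 16 up and 0 down), Nlrc5, their transactivator, going from 5.36 ± 0.482 to 16.6 ± 1.18 CPM. Of 21 oxidative stress and metallothionein genes 11 rose and 10 fell (with library totals alone, 15 up and 4 down). Mast cell genes gave 4 rises among 8 and no fall, led by Fcer1a, from 0.333 ± 0.136 to 1.69 ± 0.221 CPM. Of 7 keratinocyte genes tested 2 rose, 2 fell and 3 did not pass (with library totals alone, 2 up and 2 down), Trp63 rising from 18.2 ± 0.93 to 52.4 ± 2.03 CPM.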
